A study of Rattus norvegicus with 3 samples.

Results

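Ephrins, semaphorins, Slits, netrins and their receptors were examined for binding of HA-tagged TET2 in rat aortic smooth muscle cells (SMC). Members were the rows of both deposited peak lists whose assigned gene symbol names an Eph receptor (Epha, Ephb), an ephrin (Efna, Efnb), a semaphorin of classes 3 to 7, a plexin, Nrp1 or Nrp2, Robo1 to Robo4, Slit1 to Slit3, Ntn1 to Ntn5, or begins with Unc5. These were 102 of 35044 peaks, 78 of 25521 in the Control list and 24 of 9523 in the Myocd-LSD1 list. They were assigned to 42 genes of 14740 with a peak, 38 of 13312 in Control and 18 of 7579 in Myocd-LSD1. The prefix Unc5 also takes Unc50 and Unc5cl, which are not netrin receptors; each had 1 Control peak, and they are counted as members throughout unless stated.

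The series holds 3 CUT&Tag samples, in which an antibody to the tag directs a transposase to cut the DNA around the bound protein. The 2 Control samples are from the cell line labelled WT and the 1 Myocd-LSD1 sample is from a line of that name; all 3 were exposed to Adv-HA-TET2, a virus carrying tagged TET2, for 24 hours in growth medium, and 500000 cells went into each assay. Myocd is the symbol of myocardin, a coactivator of smooth muscle genes, and LSD1 is a histone H3K4 demethylase, but how the line was made, and whether it is 1 clone, is not given in the labels. Both Control samples name the same list, so each group has 1 list, there is no replicate error, and no difference between the lists was tested. TET2 came from the virus in every sample, and no sample without the virus and no input or IgG sample was used here. A TET2 peak does not report expression, so the label of the cells could not be checked against marker genes.

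Ephrins are cell surface ligands of the Eph receptor tyrosine kinases, and both sides can signal after cells touch. Semaphorins act through plexins, the secreted class 3 members mostly with a neuropilin as the binding partner, while Slits bind Robos and netrins bind Dcc and the Unc5 receptors. These families are known for steering axons, and some members also guide the growth of vessels, where ephrin-B2 marks arteries and Ephb4 marks veins. TET2 oxidises methylated cytosine in CpG pairs.

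The promoters on which the peaks at start sites bear are shown as RefSeq windows of the GRCr8 assembly, from 250 bases before to 50 after the start, with every CpG in capitals. The RefSeq table held such a window for 55 of the 70 protein-coding genes that the rule names. The deposited peaks are in rn6 coordinates and lie here only by their distance from the start of their own transcript, which need not be the RefSeq start. Of the genes with a window, Ephb3, Nrp2 and Efnb2 had a promoter peak in both lists. Epha4 had one in both lists too, but no window. Ephb3 (chr11:93363726-93364025, minus strand) and Nrp2 (chr9:71617004-71617303, plus strand) held 18 and 16 CpGs, and Efnb2 (chr16:87484965-87485264, plus strand) held 45.
Ephb3: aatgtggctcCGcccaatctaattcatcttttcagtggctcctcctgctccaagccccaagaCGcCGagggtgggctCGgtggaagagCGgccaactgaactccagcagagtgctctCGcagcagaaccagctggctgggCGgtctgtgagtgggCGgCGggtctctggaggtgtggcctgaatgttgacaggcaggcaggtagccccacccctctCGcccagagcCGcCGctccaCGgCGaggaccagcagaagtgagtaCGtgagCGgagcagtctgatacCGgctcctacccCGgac
Nrp2: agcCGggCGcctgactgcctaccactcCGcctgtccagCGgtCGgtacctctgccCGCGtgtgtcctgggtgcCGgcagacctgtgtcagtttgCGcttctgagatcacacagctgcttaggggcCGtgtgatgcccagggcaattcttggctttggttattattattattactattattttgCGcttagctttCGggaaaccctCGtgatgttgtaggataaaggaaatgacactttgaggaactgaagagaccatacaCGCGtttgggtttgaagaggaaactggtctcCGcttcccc
Efnb2: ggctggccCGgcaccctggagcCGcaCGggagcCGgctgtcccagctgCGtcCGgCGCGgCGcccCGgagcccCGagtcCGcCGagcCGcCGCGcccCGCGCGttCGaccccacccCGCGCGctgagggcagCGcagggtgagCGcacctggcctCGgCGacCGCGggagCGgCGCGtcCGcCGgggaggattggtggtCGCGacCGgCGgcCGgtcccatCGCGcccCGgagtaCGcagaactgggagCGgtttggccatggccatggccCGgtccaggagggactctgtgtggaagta

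Around its own transcript start, the Ephb3 peak ran from 125 bp before to 290 bp after in Control. In Myocd-LSD1 it ran from 166 bp before to 62 bp after. Both would cover sequence of this window if that start is the RefSeq one. On the same condition the Efnb2 peaks lay upstream of their window. They ran from 938 to 638 bp before the start in Control and from 1019 to 661 bp before it in Myocd-LSD1. The Control Nrp2 peak began 29 bp after the start, and the Myocd-LSD1 one began 2656 bp after the start of another transcript. Unc5b, Efnb1 and Sema3c are shown because, by the same distance, a promoter peak in Control reached the window and none was listed in Myocd-LSD1. Unc5b (chr20:29307221-29307520, minus strand) held 37 CpGs, Efnb1 (chrX:68297279-68297578, plus strand) 18 and Sema3c (chr4:18699578-18699877, minus strand) 1.
Unc5b: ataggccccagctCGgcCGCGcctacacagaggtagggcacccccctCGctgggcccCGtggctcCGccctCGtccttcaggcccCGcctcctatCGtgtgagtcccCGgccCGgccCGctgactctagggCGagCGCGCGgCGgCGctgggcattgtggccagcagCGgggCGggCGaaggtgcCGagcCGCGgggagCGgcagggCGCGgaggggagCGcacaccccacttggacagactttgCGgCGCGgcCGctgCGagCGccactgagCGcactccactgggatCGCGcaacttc
Efnb1: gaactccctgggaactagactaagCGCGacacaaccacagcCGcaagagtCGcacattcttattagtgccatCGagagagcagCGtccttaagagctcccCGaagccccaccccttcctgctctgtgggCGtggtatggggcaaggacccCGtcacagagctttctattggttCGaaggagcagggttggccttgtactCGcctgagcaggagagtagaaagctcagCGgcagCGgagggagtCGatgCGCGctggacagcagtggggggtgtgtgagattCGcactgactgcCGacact
Sema3c: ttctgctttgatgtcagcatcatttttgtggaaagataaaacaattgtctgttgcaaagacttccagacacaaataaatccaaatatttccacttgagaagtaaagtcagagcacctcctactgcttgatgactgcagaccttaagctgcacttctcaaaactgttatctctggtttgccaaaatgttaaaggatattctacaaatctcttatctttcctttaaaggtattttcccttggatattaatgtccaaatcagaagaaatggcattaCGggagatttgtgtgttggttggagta

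The Control Unc5b peak ran from 84 bp before to 158 bp after its start, the Efnb1 peak from 36 bp before to 213 bp after, and the Sema3c peak from 446 to 130 bp before. By these distances a Control peak reached the Sema3c window, with a single CpG, as well as the CpG-dense Unc5b window. The starts of the windows were not matched to these transcripts. From the start of another Unc5b transcript, the Control Unc5b peak lay at -0.36 kb. Among guidance genes with a window, the median was 18 CpGs with a promoter peak in both lists (3 genes), 18 with one in Control alone (7 genes) and 18 with none (44 genes), so the number did not separate them. Over all genes of the table the medians were 23, 20 and 6. Of the 44 guidance genes with no promoter peak, 29 (65.9%) held at least 15 CpGs, against 24.8% of all genes with none.

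The lists differ in depth by the measure below, and this cannot be told apart from the difference in cell line or in number of samples. From the fold and p-value of each peak the number of fragments at its summit, here called the pile-up, was recovered, and the lowest local background, a measure of depth, was 0.175 fragments for Control. For Myocd-LSD1 it was 0.0633, lower by a factor of 2.77. Guidance gene peaks numbered 3.25 times as many in Control as in Myocd-LSD1, and all peaks 2.68 times. With the Control list shortened to the length of the other by significance, 27 guidance peaks stood against 24, a ratio of 1.12. The median guidance peak held 7 fragments (3 to 64) in Control and 4 (2 to 19) in Myocd-LSD1, against 7 and 5 over all peaks. A peak of 3 fragments or fewer made up 6 of the 78 (6.47% of all Control peaks) and 9 of the 24 (30.2% of all Myocd-LSD1 peaks), so many Myocd-LSD1 peaks stood close to the fewest fragments that list holds, 2. Of the Control peaks over 30 fragments, 63.8% were met, but none of the guidance peaks of that height, at Epha2, Ntn3 and Sema3f. The part of depth in missing peaks was not tested. The deposited fold is the authors' own value for each peak and serves, beside the recovery of pile-ups, to describe and rank peaks within a list; its median was 5 in Control against 5.24 over all peaks, and 4.24 in Myocd-LSD1 against 4.72.

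**Figure D1:**
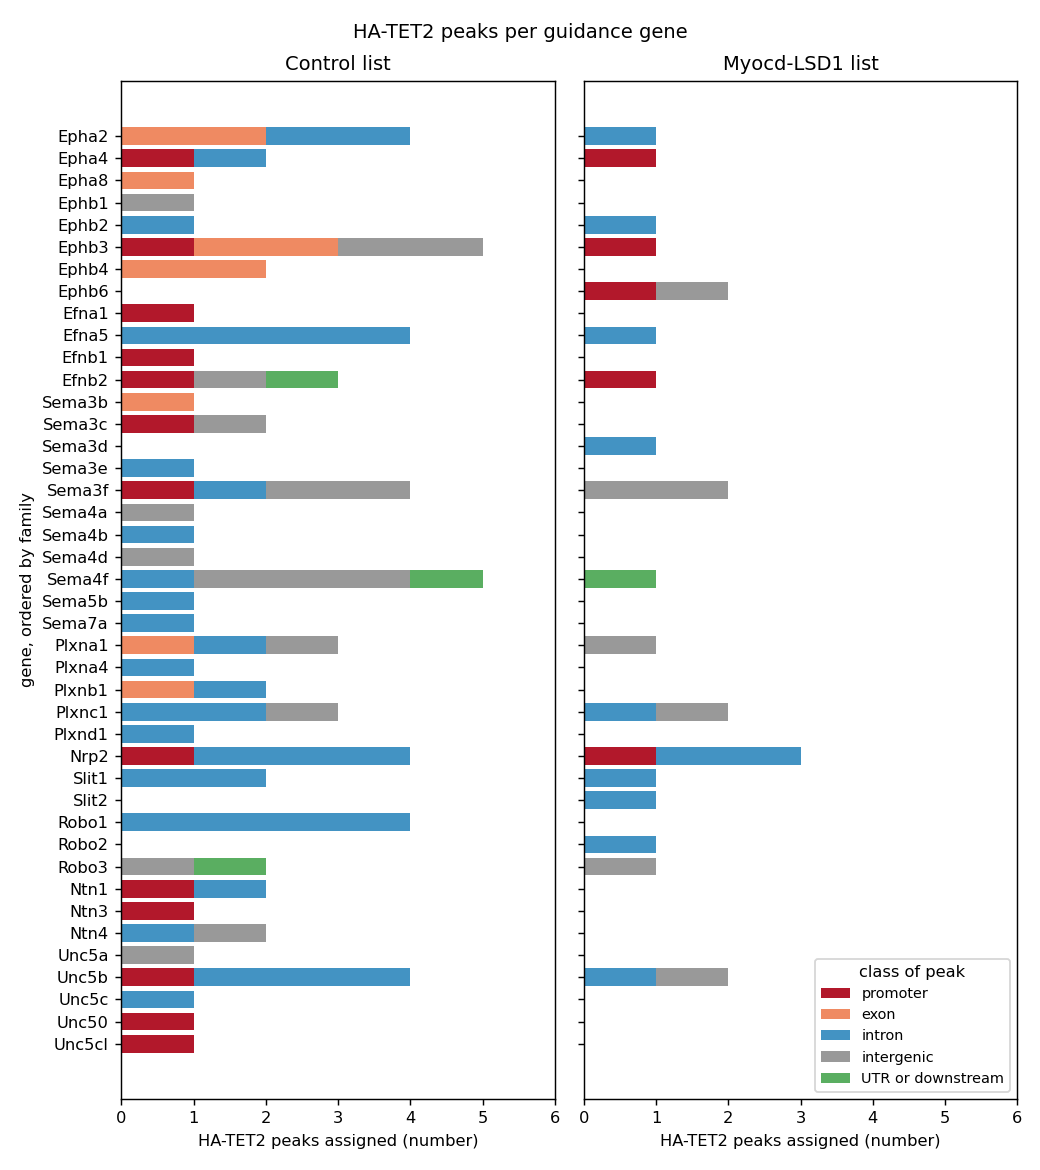
Number of HA-TET2 peaks assigned to each of the 42 guidance genes (bars, by class of peak) in the Control list (left) and the Myocd-LSD1 list (right). Ephb3 and Sema4f reached 5 peaks in Control, no gene exceeded 3 in Myocd-LSD1, and exon peaks appear in Control alone.

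Peaks were spread thinly over many genes. In Control 19 genes had 1 peak, 8 had 2, 3 had 3, 6 had 4 and 2 had 5, and in Myocd-LSD1 13 had 1, 4 had 2 and 1, Nrp2, had 3. Introns held 35 of the 78 Control peaks (44.9%, against 29.8% of all Control peaks), intergenic sequence 17 (21.8% against 26.9%), promoters 13 (16.7% against 30.3%) and exons 10 (12.8% against 10.7%), with 2 in UTRs and 1 just downstream of a gene. The promoter share of guidance peaks was thus lower than that of the list and the intron share higher. Of the 24 Myocd-LSD1 peaks, 11 were in introns, 7 intergenic, 5 in promoters, 1 downstream and 0 in exons. A count of 0 in 24 allows an exon share of up to 12.5%, and the share over all Myocd-LSD1 peaks was 3.5%.

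Among Eph receptors, 8 of 14 genes had a peak. Over all 23148 protein-coding genes, 10469 had one in either list, which is the background for the families below too. Eph receptors had 16 peaks in Control and 6 in Myocd-LSD1. Of the 16, 2 were met, meaning that they shared at least 1 bp with a peak of the other list (12.5%, against 22% of all Control peaks). Ephb3, a receptor of B-type ephrins, carried the strongest of them at its start site, on chr11:83546452-83546867 in rn6. The fold there was 9.14 with 16 fragments in Control and 7.66 with 9 fragments in Myocd-LSD1, and the summits lay 83 bp apart. It ranked at percentile 92.2 of the Control list and 89.5 of the Myocd-LSD1 list, so it stood high in both. The other 4 Control peaks of Ephb3 had no Myocd-LSD1 peak. A pair lay in exons, at chr11:83529173-83529937 with 22 fragments and a fold of 5.17, and at chr11:83530696-83530917 with 15 fragments and a fold of 3.5, and the remaining pair was intergenic with 7 and 3 fragments.

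Ephb2, which also binds B-type ephrins, had its peak in intron 2 of 14 on chr5:155103940-155104560, 38979 bp after the start. This site had a fold of 6.56 with 13 fragments in Control and 7.37 with 10 in Myocd-LSD1, with summits 40 bp apart.

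Epha2, a receptor of A-type ephrins, had the highest pile-up of any guidance peak. It lay in exon 3 of 17 on chr5:159852126-159853789, 1664 bp wide, with 64 fragments, but its fold was 6.67 because the local background there was 8.75 fragments, against a median of 0.514 over all Control peaks. A second Epha2 peak in intron 2 had 22 fragments over a background of 8.73, which gave a fold of 2.36, the lowest of the 78. These were 2 of the 98 Control peaks with a background of 8 fragments or more. A peak in exon 5 had 13 fragments and a fold of 4.27, and one in intron 8 had 19 fragments and a fold of 5.2. In Myocd-LSD1, Epha2 had 1 peak, in intron 3 on chr5:159855582-159855749, with 14 fragments and a fold of 6.23. It lay 1792 bp from the exon 3 peak and met none, and it was 1 of 10 Myocd-LSD1 peaks over 12 fragments, of 658, without a Control peak.

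Epha4, another receptor of this family, had promoter peaks in both lists at different sites. The Control one, across the start on chr9:83253260-83253550, had 7 fragments and a fold of 6.5, and the Myocd-LSD1 one, on chr9:83254543-83254769 and 1057 bp before a start, had 3 fragments and a fold of 3.63. The gap between them was 992 bp. A Control peak in an intron had 4 fragments.

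Ephb4, the receptor of ephrin-B2 known from veins, had Control peaks alone, both in exons. The one on chr12:22413599-22414230, 4101 bp from the start, had 13 fragments and a fold of 6.34, and the one 22611 bp from the start had 8 fragments and a fold of 3.4. Epha8 and Ephb1 each had 1 Control peak of 7 fragments, in an exon and in intergenic sequence. Ephb6, a receptor without kinase activity, was listed in Myocd-LSD1 alone, with a promoter peak of 3 fragments and a fold of 3.75 on chr4:70902595-70902821 and an intergenic peak of 4 fragments and a fold of 4.15. Eph receptors held 7 of the 10 guidance exon peaks in Control, in Epha2, Epha8, Ephb3 and Ephb4.

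Among ephrins, 4 of 8 genes had a peak, and 2 of 9 Control peaks were met (22.2%, against 22% of all Control peaks). Efnb2, the transmembrane ligand ephrin-B2, had its promoter site on chr16:86630213-86630513, where the fold was 3.52 with 4 fragments in Control and 4.92 with 5 in Myocd-LSD1. The summits were 16 bp apart, so the position was shared although the fragments were few. A stronger Control peak lay in the 3′ UTR on chr16:86671381-86671923, with 14 fragments and a fold of 8.2, and a further one was intergenic with 4 fragments, and neither had a Myocd-LSD1 peak within 40 kb.

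Efna5, a ligand held in the membrane by a lipid anchor, had 4 Control peaks along its long intron 1, each of 4 or 5 fragments, with folds of 3.63 to 5.11. The one on chr9:110187273-110187493, 142194 bp after the start, was met, with a fold of 4.96 in Control and of 4.28 with 4 fragments in Myocd-LSD1, and summits 48 bp apart. Efna1, of the same anchored kind, had a Control promoter peak of 6 fragments and a fold of 4.09, 1237 bp after its start. Efnb1, a transmembrane ephrin on chromosome X, had the start site peak described above, with 4 fragments and a fold of 4.26.

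The secreted semaphorins had a peak at 5 of 7 genes, and 1 of 8 Control peaks was met (12.5%, against 22% of all Control peaks). Sema3f, which binds Nrp2, had 4 Control peaks, of which the strongest, on chr8:116446488-116446988, had 33 fragments and a fold of 9.02. The annotation calls it a promoter, 2950 bp after the start of a short transcript. In another Sema3f transcript, of 29.9 kb, it lay 23.18 kb after the start. No Myocd-LSD1 peak lay within 27 kb of it. The peak beside it in an intron had 18 fragments and a fold of 5.48. The met site was a weaker one upstream, on chr8:116486112-116486727, 16197 bp before the start, with a fold of 6.93 and 10 fragments in Control and 4.15 and 4 fragments in Myocd-LSD1, summits 74 bp apart. A further upstream pair, 4124 and 4389 bp before the start, missed each other by 46 bp, with 5 and 4 fragments and folds of 4.53 and 4.34.

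Sema3c, known in the mouse for the cardiac outflow tract, had its promoter peak of 4 fragments and an intergenic peak of 7 fragments and a fold of 6.5, in Control alone. Sema3e, a ligand of Plxnd1, had 1 intron peak of 5 fragments in Control. A Sema3b peak of 7 fragments lay in an exon of Gnai2, a neighbouring gene. Sema3d was listed in Myocd-LSD1 alone, in an intron, with 2 fragments.

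The membrane-bound semaphorins had a peak at 6 of 13 genes, 10 in Control, of which 1 was met (10%, against 22% of all Control peaks). Sema4f held the met peak, and among the 8 met sites assigned to guidance genes it had the highest fold in both lists, on chr4:113735461-113735835 downstream of the gene. In Control it had 23 fragments and a fold of 9.29, and in Myocd-LSD1 19 fragments and a fold of 12.8, at percentile 92.7 and percentile 99.2 of their lists. The summits lay 14 bp apart. The other 4 Control peaks assigned to Sema4f had no Myocd-LSD1 peak, although 1 of the 3 intergenic ones, on chr4:113694793-113695153, had 12 fragments and a fold of 7.27. Sema4d, a ligand of Plxnb1, had an intergenic peak on chr17:13478169-13478820, 37456 bp before its start, of 12 fragments and a fold of 7.19. Sema4a, Sema4b, Sema5b and Sema7a, the last a ligand of Plxnc1, each had 1 Control peak, of 9, 5, 5 and 6 fragments.

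Plexins, the semaphorin receptors, had a peak at 5 of 9 genes, and 0 of their 10 Control peaks was met, which allows a share of up to 30% at 3 counts, above the 22% of all Control peaks. Their folds ranged from 3.25 to 5.31, the highest in exon 14 of 38 of Plxnb1, where 14 fragments lay over a background of 1.83. No plexin had a promoter peak in either list. Plxna1 had 3 Control peaks of 3 to 7 fragments, 1 of them inside an intron of Chchd6, and a Myocd-LSD1 peak on chr4:121319069-121319239, 56372 bp before the start, of 7 fragments and a fold of 6.56. Plxnc1 had 3 Control peaks of 4 fragments and 2 Myocd-LSD1 peaks of 2 fragments, the closest 579 bp apart. Plxna4 and Plxnd1 had 1 Control intron peak each, of 5 and 4 fragments.

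Nrp2, a co-receptor of Sema3f, was the guidance gene with most Myocd-LSD1 peaks, 3 beside 4 in Control, and 1 site was met. That site, in intron 2 of 15 on chr9:69514171-69514655, had a fold of 6.45 with 15 fragments in Control and 6.74 with 9 in Myocd-LSD1, summits 198 bp apart. The Control promoter peak, on chr9:69496905-69497175, had 7 fragments and a fold of 5.04, and the Myocd-LSD1 promoter peak, on chr9:69500090-69500271, 6 and 5.54. They lay 2914 bp apart, so both lists have a promoter peak without sharing a site. In intron 10 the peaks, of 7 and 3 fragments, missed each other by 88 bp, and intron 7 had a Control peak of 9 fragments and a fold of 6.65. Nrp1, the other neuropilin, had no peak assigned.

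**Figure D2:**
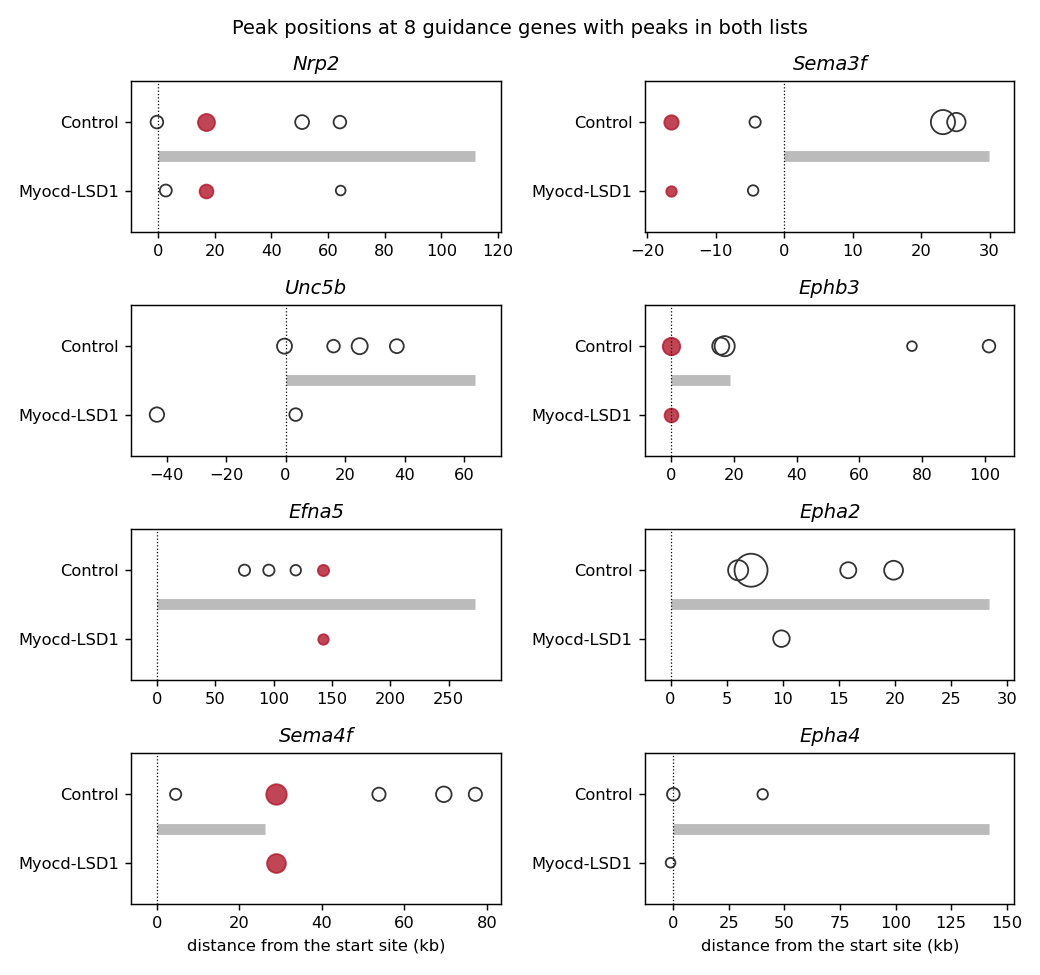
Position of each peak relative to the start site (kb) in 8 guidance genes with peaks in both lists; the grey bar is the transcript, the area of a circle grows with the pile-up, and filled circles are met by the other list. Ephb3 shared its start site, Nrp2 its intron 2, Sema3f and Sema4f a site outside the gene and Efna5 a site in intron 1, while Unc5b, Epha2 and Epha4 shared none.

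Few and mostly weak peaks were assigned to Slit ligands and Robo receptors. Further Control peaks inside Robo1 and Slit3 were assigned to other symbols and are given below, among them a Robo1 intron site with a fold of 13.3. Robo1 had 4 Control peaks in introns 2 and 3, the strongest on chr11:9744101-9744749 in intron 3 with 12 fragments and a fold of 8.41, the others with 4 to 6 fragments, and none was met. Robo3 had a met intergenic site on chr8:39936179-39936417, 12444 bp before the start, where the fold was 3.57 in Control and 4.21 in Myocd-LSD1, with 4 fragments in each and summits 302 bp apart, and a Control peak of 3 fragments in a 5′ UTR. Robo2 had 1 Myocd-LSD1 intron peak of 2 fragments. Slit1 had Control peaks of 7 and 5 fragments in introns 22 and 10 and a Myocd-LSD1 peak of 3 fragments in intron 6, 9234 bp away. Slit2 had 1 Myocd-LSD1 intron peak of 3 fragments and a fold of 3.75.

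Netrins, the ligands of Dcc and Unc5 receptors, included the highest Control folds among guidance genes, with a median of 8.78 over 5 peaks, and had 0 peaks in Myocd-LSD1. Ntn1 had a peak in intron 2 of 6, on chr10:54921412-54921827, with 17 fragments and a fold of 10.6, the highest of the 78. Its promoter peak, on chr10:54966428-54967176 and 495 bp after the start, had 19 fragments and a fold of 9.56. Ntn3 had a promoter peak 1055 bp wide on chr10:13579224-13580278, with 37 fragments and a fold of 8.78 over a background of 3.33. Ntn4, found in basement membranes, had an intergenic and an intron peak of 9 fragments each, with folds of 5.63 and 7.04. These 5 peaks lay at least 33 kb from any Myocd-LSD1 peak, and 0 of 5 allows a met share of up to 60% at 3 counts, so netrins cannot be told from other families on it.

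The Unc5 receptors had 6 Control peaks and 2 Myocd-LSD1 peaks, none met. A count of 0 of 6 allows a share of up to 50%, above the 22% of all Control peaks. Unc5b, a netrin receptor also known from endothelium, held 4 of the 6, its start site peak on chr20:30406435-30406677 with 11 fragments and a fold of 5.95 and 3 in intron 1 with 7, 9 and 13 fragments. In Myocd-LSD1 it had an upstream peak on chr20:30449315-30449581, 42722 bp before the start, with 10 fragments and a fold of 8.54, percentile 93.5 of that list and the highest fold among the guidance peaks without a Control peak. A second one in intron 1, on chr20:30402675-30402925, had 7 fragments and a fold of 5.27 and lay 3509 bp from the Control promoter peak. Both lists thus marked Unc5b at different places. Unc5a and Unc5c had 1 Control peak each, of 7 and 6 fragments, intergenic and in intron 1. The promoter peaks of Unc50 and Unc5cl had 3 fragments each and folds of 3.31 and 3.4.

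Of the 78 Control peaks, 8 (10.3%, exact 95% interval 4.53 to 19.2, counting error only) were met by a Myocd-LSD1 peak, against 22% of all Control peaks. The list's share lay above the interval. Part of the gap goes with what kind of peaks these are: all Control peaks in the same mix of classes had a share of 18.5%, and in the same mix of classes and pile-ups 17.4%, both inside the interval. Several peaks of a gene share their locus, so the interval is too narrow for genes. In the other direction, 8 of 24 Myocd-LSD1 peaks (33.3%, 15.6 to 55.3) were on a Control peak, against 59.4% of all, 55.1% in the same classes and 56.3% in the same classes and pile-ups. The first and the last of these values lay above the interval, and 55.1% lay just inside its upper end. Of the 16 unmet Myocd-LSD1 peaks, 9 had 3 fragments or fewer and 4 lay within 1 kb of a Control peak. Their median was 3 fragments, the same as over all 3867 unmet Myocd-LSD1 peaks. The share within 1 kb was not computed over all unmet peaks.

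By class, 2 of 13 promoter peaks were met (15.4%, 1.92 to 45.4) against 37.8% of all Control promoter peaks. In introns 3 of 35 were met (8.57%, 1.8 to 23.1) against 14.4%, and in intergenic sequence 2 of 17 (11.8%, 1.46 to 36.4) against 18.9%. In exons it was 0 of 10, which allows up to 30% at 3 counts, against 8.52%. In these 4 classes the guidance share was below the list's, and each interval held the list's value. The single downstream peak, at Sema4f, was met, against 16.5% of all downstream peaks, and neither of the 2 UTR peaks was.

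By pile-up, 3 of 28 peaks of 1 to 5 fragments were met (10.7%, 2.27 to 28.2) against 8.38% of all Control peaks of that height, so the weakest peaks had a share near that of the list. From 6 to 12 fragments 1 of 31 was met (3.23%, 0.0816 to 16.7) against 20.8%, and over 12 fragments 4 of 19 (21.1%, 6.05 to 45.6) against 43%. The list's value lay outside the interval in the middle range alone. The 15 unmet peaks over 12 fragments included 6 in exons, where the median local background of guidance peaks was 1.74 against 0.724 for all Control exon peaks; its part in the result was not tested.

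**Figure D3:**
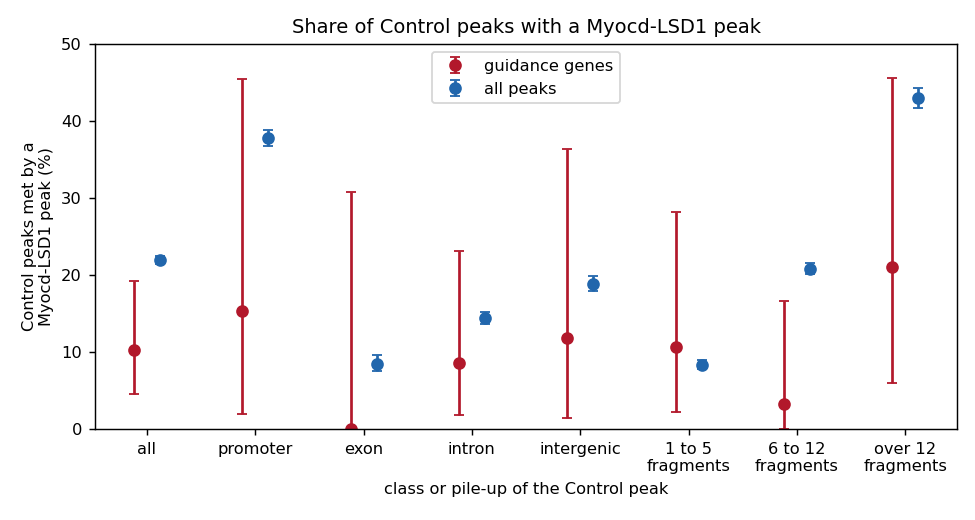
Share (%) of Control peaks met by a Myocd-LSD1 peak, for guidance genes (red) and all peaks (blue), over all peaks, by class and by pile-up; bars are exact 95% intervals that cover counting error only. The guidance share was 10.3% against 22% over all peaks and 3.23% against 20.8% from 6 to 12 fragments.

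Counted by gene, 4 of 13 with a Control promoter peak also had a Myocd-LSD1 promoter peak (30.8%, 9.09 to 61.4), against 43.4% of all such genes. These were Efnb2, Epha4, Ephb3 and Nrp2, and they were 80% of the 5 with a Myocd-LSD1 promoter peak, against 74.1% of all such genes, the fifth being Ephb6. With any peak, 14 of 38 genes were in both lists (36.8%, 21.8 to 54), against 46.2% of all genes, and they were 77.8% of the 18 in Myocd-LSD1, against 81.2% of all genes with a Myocd-LSD1 peak. Both intervals held the list's value. Of the 14, 8 had a met peak (Efna5, Efnb2, Ephb2, Ephb3, Nrp2, Robo3, Sema3f and Sema4f) and 6 had peaks at different sites (Epha2, Epha4, Plxna1, Plxnc1, Slit1 and Unc5b). In 6 of the 8 met pairs the summits were within 100 bp, and in 6 the pile-up was higher in Control, the deeper list. Ligands had 4 of 34 Control peaks met (11.8%) and receptors 4 of 42 (9.52%), with intervals of 3.3 to 27.5 and 2.66 to 22.6 that overlap over most of their span.

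**Figure D4:**
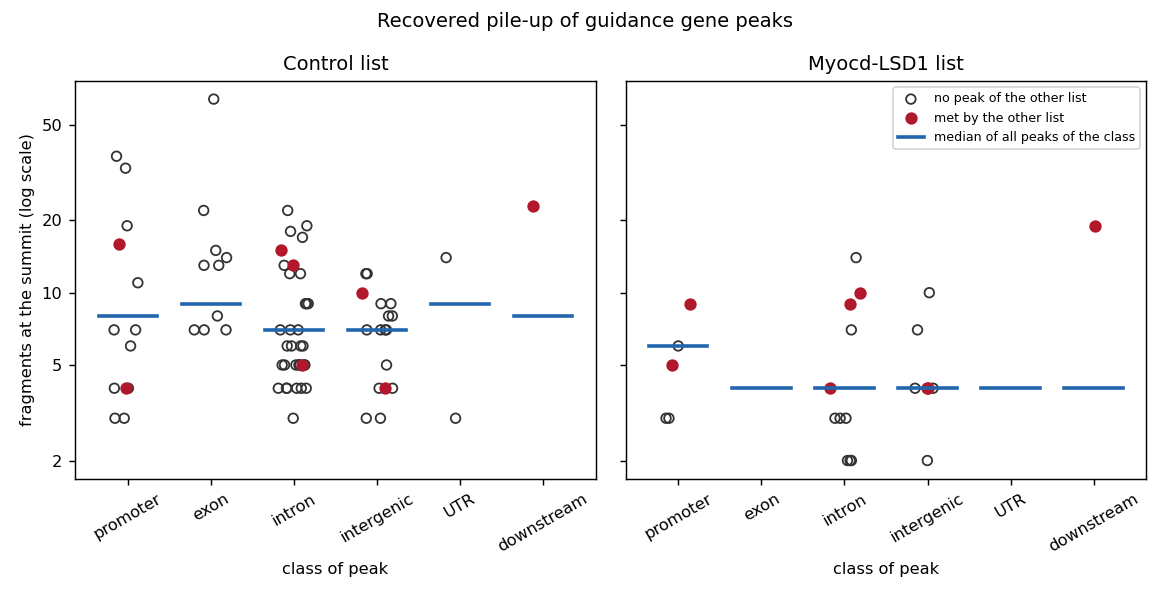
Fragments at the summit (log scale) of each guidance gene peak by class, in the Control list (left) and the Myocd-LSD1 list (right); filled points are met by the other list and blue bars are the median of all peaks of that class. Met peaks held 4 to 23 fragments in Control, and the 3 peaks above that, of 33, 37 and 64 fragments, were not met.

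The RefSeq table names 70 protein-coding genes under the rule, and 28 had no peak in either list. These were Epha1, Epha3, Epha5, Epha6, Epha7, Epha10, Efna2, Efna3, Efna4, Efnb3, Sema3a, Sema3g, Sema4c, Sema4g, Sema5a, Sema6a to Sema6d, Plxna2, Plxna3, Plxnb2, Plxnb3, Nrp1, Slit3, Robo4, Ntn5 and Unc5d. A Control peak was assigned to 38 of 70 (54.3%, 41.9 to 66.3), against 41.1% of all 23148 protein-coding genes, and a Myocd-LSD1 peak to 18 (25.7%, 16 to 37.6), against 24.4%. Guidance genes are long, with a median of 42.7 kb against 15.5 kb, and the share of all genes with a Control peak rose with length, from 23.7% under 10 kb to 58.2% over 100 kb. Among guidance genes it was 3 of 7 under 10 kb (42.9%), 13 of 25 from 10 to 30 kb (52% against 47.7% of all genes), 6 of 7 from 30 to 100 kb (85.7% against 55.9%) and 16 of 31 over 100 kb (51.6%). The guidance share in Control was thus above that of all genes in the shorter 3 length ranges and below it in the longest. In Myocd-LSD1 it was above in the range from 30 to 100 kb alone (42.9% against 34.2%). It was below under 10 kb (0% against 12.6%), from 10 to 30 kb (24% against 27.5%) and over 100 kb (29% against 39.4%). Ranges of 7 genes say little.

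Assignment to the nearest start also moved some peaks out of the set. The annotation placed 21 Control and 3 Myocd-LSD1 peaks in an exon or intron of a guidance gene but assigned them to another symbol. The strongest met site in Robo1 was among them, in an intron on chr11:9884819-9885310, with a fold of 13.3 and 24 fragments in Control and 5.99 and 6 fragments in Myocd-LSD1, and a second Robo1 intron site was met with folds of 8.19 and 4.15. Another met site lay in Ephb2, in an exon in the Control list, with folds of 9.09 and 4.15. Exon peaks without a Myocd-LSD1 peak lay in Epha10 (43 fragments, fold 12.7), Plxnd1 (27 fragments, fold 8.3) and Unc5b (16 fragments, fold 8.17), and Slit3 had 4 intron peaks of 4 to 9 fragments. Epha10, Plxnb2 and Slit3 thus each hold a Control peak in the gene body although none was assigned to them. With these peaks added, an alternative chosen after the data were seen, 11 of 99 Control peaks were met (11.1%) and 11 of 27 Myocd-LSD1 peaks (40.7%).

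The partners and cytoplasmic effectors of these receptors made up a list of 77 genes. Of the 77, 59 were in the Control list and 41 in the Myocd-LSD1 list, with 39 in both. Both shares of the 77 were above those of all protein-coding genes, 41.1% in Control and 24.4% in Myocd-LSD1. The share of 39 in 59 was above the 46.2% over all genes in the Control list. The share of genes with a peak rose with length above, and length was not matched for these effectors. Of their 202 Control peaks, 51 were met (25.2%, 19.4 to 31.8), near the 22% of the whole list. The share was 10.3% over all guidance peaks (4.53 to 19.2) and 10.5% without Unc50 and Unc5cl (4.66 to 19.7). The last interval overlaps that of the effectors. The difference between the sets of genes was not tested. The met sites of highest Control fold were in introns of Fyn (17.9), a Src family kinase, of Shb (14.3), an adaptor, and of Gsk3b (12.8), a kinase, and in promoters of Farp2 (12.9), an exchange factor, of Arhgap35 (12.2) and of Srgap2 (11.9), a Slit-Robo GTPase activator. Farp1 (11.1), Limk1 (9.8), which phosphorylates cofilin, Myo10 (8.87) and Mical3 (8.69) followed. Dcc, the receptor netrins share with Unc5, had no peak in either list.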

How the data were processed

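HA-TET2 CUT&Tag was measured in 2 Control samples and 1 Myocd-LSD1 sample of rat aortic SMC. The submitters' processing notes name build rn6 and the tools Bowtie2, deepTools, MACS2 and ChIPseeker; their versions and settings, and any pooling of Control reads, were not given in the sources used here. Both lists deposited by the authors give each peak a fold enrichment (a ratio), a −log10 p-value, a −log10 q-value (at least 1.32 and 1.31, a q-value of 0.05), a summit, a class and the nearest gene, with promoters reaching 3 kb. The line of column names holds the name of peak 1, so that peak was not usable, and 45 and 23 peak numbers are not in the lists.

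Members, families and lists were chosen with earlier results of these data known. A shared base, 1 bp or more, counted as overlap in Python 3.11.15 (pandas 2.3.3, scipy 1.17.1). Pile-ups, in whole fragments, and local backgrounds were solved from the deposited fold and Poisson p-value, within 0.01 on −log10 p, for 99.9% of Control and 99.8% of Myocd-LSD1 peaks; the step was tested on simulated data. Intervals are exact binomial (Clopper-Pearson) at 95% and cover counting error only, since amplified fragments are not independent molecules; a count of 0 allows up to 3 counts. With 1 list per group no test and no p-value was made. Exon and intron numbers are the annotation's and can run against the direction of the gene.

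Fold and pile-up, in a few cases as a range, are given for peaks met by the other list and promoter peaks of genes with one in both lists. They are also given for the 10 Control peaks and the 10 unmet Myocd-LSD1 peaks of highest fold. For the 8 genes with most Control peaks, full values are given for some peaks and counts, fragments or ranges for the others. Of the effector list, the 10 genes of highest met Control fold are given with that fold. Sequence of the peaks themselves was not analysed here, since no rn6 genome was used.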

Additional observations from a re-analysis of the deposited data

How the results depend on the processing

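The 7 shares and ratios were recomputed under 42 alternatives, and 41 stayed within the interval of the main value. Those intervals are wide (9.09 to 61.4 for the promoter genes) and the alternatives reuse most of the same peaks. The count therefore does not show whether the contrast with all peaks holds under each setting, and that was not tested. The ratio of guidance peak numbers moved from 3.25 to 1.12 with the Control list shortened to the length of the other; by construction this sets the ratio over all peaks to 1. The share of Control guidance peaks met ranged from 7.69% (reciprocal overlap of 50%, against 14.4% of all Control peaks) to 18.5% (Control list shortened, against 38.7%). That of Myocd-LSD1 guidance peaks ranged from 20.8% (Control list shortened, against 39.1% of all Myocd-LSD1 peaks) to 41.7% (within 500 bp, against 62.4%). The share of promoter genes in both lists ranged from 18.2% (promoters within 1 kb) to 36.4% (without Unc50 and Unc5cl), and that of genes with any peak in both from 31.2% to 47.4%. Leaving out Unc50 and Unc5cl, and adding peaks inside guidance genes that are assigned elsewhere, were chosen after seeing the data. No paired analysis was possible because each group has 1 list and the groups share only 1 replicate number. Leaving out a replicate was not run, since the lists are not given per sample. In the shorter list 62.5% of guidance peaks had 5 fragments or fewer, against 57.5% of all its peaks. The part of depth in these shares was not tested.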

Other observations

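Markers of other cell types were listed too, although a TET2 peak is not expression. Over all protein-coding genes, 41.1% were in the Control list and 24.4% in the other, and 22% of all Control peaks were met, so counts over 6 genes say little. Of 6 smooth muscle markers, 3 had a Control peak (Acta2, Tagln and Smtn, 6 peaks together, 0 met) and 0 a Myocd-LSD1 peak. Of 6 endothelial markers, 5 were in the Control list, with folds up to 9.13 in Vwf, and 0 in the other. Of 6 neuronal markers, 4 had a Control and 3 a Myocd-LSD1 peak, with met sites at Map2 (fold 10 in Control and 3.76 in Myocd-LSD1) and Tubb3 (8.99 and 5.06). Of 6 macrophage markers, 4 had a Control and 1 a Myocd-LSD1 peak.

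Of all genes with a Control peak, 46.2% had any in Myocd-LSD1, so its absence is common, and among the effectors it included genes with many Control peaks. Anks1a, an adaptor of Eph receptors, had 14 Control peaks with folds up to 7.63, Nck2 had 8 with folds up to 8.65, Enah, an actin regulator, had 8 with folds up to 5.55, and Tiam1, a Rac exchange factor, had 5 with folds up to 12. Fyn had the most, 15 in Control and 5 in Myocd-LSD1, of which 4 in each list were met.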
